A study of Drosophila melanogaster with 56 samples.

Results

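The genes described here are the gut digestive enzyme genes of Drosophila melanogaster, chosen by their symbols alone in the deposited count table: the Jonah (Jon) serine proteases, the trypsins named by Greek letter, the maltases *Mal-A* and *Mal-B*, the lettered lysozymes and the 3 amylase genes *Amy-p*, *Amy-d* and *Amyrel*. The rule found 47 of 17490 genes, of which 16 were Jon genes, 11 trypsins, 8 *Mal-A*, 2 *Mal-B*, 7 lysozymes and 3 amylase genes. The rule itself used no measured value, but the set was chosen with earlier results of these data known. In all, 46 of the 47 passed the expression filter and were tested among 15675 genes. The exception, *LysC*, had no count in 24 of 56 libraries and at most 20 counts in any.

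RNA was sequenced from 56 pools of 30 adult mated whole flies, females and males apart, in a Canton S (B) background. In every line, controls included, the *Obp50* odorant-binding protein cluster had been deleted and a cluster put back at its endogenous place. Flies of the *Obp50a*, *Obp50b* and *Obp50c* genotypes carried the named gene as the only functional paralog (2 lines each), *Obp50d* flies did so in 1 line, and *Obp50Pos* flies, also 1 line, carried the intact cluster. *Obp50cBCD* flies had a functional *Obp50c* beside the *Obp50b* allele with CD missense changes (2 lines), *Obp50NegBCD* flies had that allele with stop codons in the other paralogs (2 lines), and *Obp50Neg* flies had premature stop codons in all 4 (2 lines). *Obp50Pos* and *Obp50d* rested on a single line each, so genotype and line cannot be told apart there.

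Digestive enzymes of the adult fly are made mostly by midgut enterocytes and are secreted into the gut lumen. Jonah proteases are chymotrypsin-like serine endopeptidases, trypsins cut proteins after basic residues, amylases break starch into maltose and short oligosaccharides, and maltases split these into glucose. Lysozymes cleave bacterial cell walls, and most fly lysozyme genes are expressed in the gut, where they serve to digest ingested bacteria. Many of these genes lie in tandem clusters of close copies, and their transcripts are known to respond to diet and feeding state.

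Most of the genes sat in such clusters (coordinates of genome release 6.13). The 8 *Mal-A* genes lay on chromosome arm 2R at 8449664 to 8473961, the trypsin cluster on 2R at 11336840 to 11357537, and *Amy-p* and *Amy-d* on 2R at 17118636 to 17126369. Clusters of Jon genes lay on 2L (*Jon25B*, 4949941 to 4955144), on 3L (*Jon65A*, 6039155 to 6054443, and *Jon66C*, 8391540 to 8393649) and on 3R (*Jon99C*, 29922216 to 29926189, and *Jon99F*, 30487016 to 30489895). The lysozymes lay on 3L at 1194739 to 1228238 and the 2 *Mal-B* genes on 2L at 11847226 to 11852881. Reads were counted over exons without regard to strand and only where they mapped uniquely, so values of near-identical neighbours (*Amy-p* and *Amy-d*, *LysB* to *LysE*, *gammaTry* and *deltaTry*, *alphaTry* and *betaTry*, and close Jon pairs) are uncertain individually. The same holds for genes whose exons overlap a gene on the opposite strand, namely *Amyrel* with *gprs*, *Jon44E* with *CG8586*, *Mal-A1* with *Cyp4e1*, *Mal-A8* with *mtt*, *deltaTry* with *CG13202* and *LysC* with *LysD*.

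Total counts per library ran between 14638498 and 53517693. The fits left out 1 female *Obp50cBCD* and 1 female *Obp50Pos* library, as the methods of the experiment did. This left 26 female and 28 male libraries and a single, unreplicated female *Obp50Pos* library. Libraries came in 3 sets by the file paths in the table headers, a first, a second and a small redo set. Set overlapped in part with genotype: all *Obp50Neg*, *Obp50NegBCD* and *Obp50c* libraries were in the first set. All female *Obp50a* libraries and all *Obp50Pos* libraries kept in the fits were in the second. Their contrasts with *Obp50Neg* therefore also compared library sets. In 7 male libraries, summed female reproductive markers stood at 612 to 3534 CPM (read counts relative to library size, with libraries scaled by edgeR's trimmed mean of M values, TMM), against 18.02 to 177 CPM in the other 21. The 5 midgut enterocyte markers were *GATAe*, *nub*, *mag*, *Npc1b* and *yip7*, of which the last 3 stand in the lists of other gut genes. They summed to 580 to 2142 CPM in females and 445 to 1603 CPM in males, so gut RNA was present in every library. Most of the sum came from *yip7*, with a median of 864 CPM in females and 772 CPM in males. Of the others, *mag* had the highest medians, at 112 and 107 CPM, so the summed values largely follow *yip7*. The sums are therefore not separate from those lists of other gut genes. Reads fell on *Obp50* genes carrying stop codons too, and *Obp50b* read 0 in every library, so the counts of the targeted genes did not check the genotype labels. Nothing in the labels says that pools of a line came from separate cultures, so p-values measure the spread between these libraries only.

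The 47 genes took between 0.707% and 3.22% of all counts in females (median 2.16%, mean 2.05% ± 0.578, SD, n = 26) and between 0.742% and 2.42% in males (median 1.91%, mean 1.81% ± 0.421, n = 28). The counting error of such a share was at most 0.00764 percentage points (95% Wilson interval), far below the spread between libraries. A few Jonah proteases made up most of this. Averaged over libraries, *Jon99Ciii* reached 4828 CPM per kilobase of exon and took 30.7% of the summed CPM of the 47 genes. *Jon65Aiv* followed with 2894 CPM per kilobase, *Jon99Cii* with 2805 and *Jon65Aiii* with 2237. The most abundant member of each other family was *alphaTry* (844 CPM per kilobase), *Amy-p* (292), *Mal-A1* (220), *LysE* (96.0) and *Mal-B2* (26.9), and the lowest 2 were *Mal-B1* (0.545) and *LysC* (0.456). The whole set therefore spanned several orders of magnitude within the same flies.

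**Figure D1:**
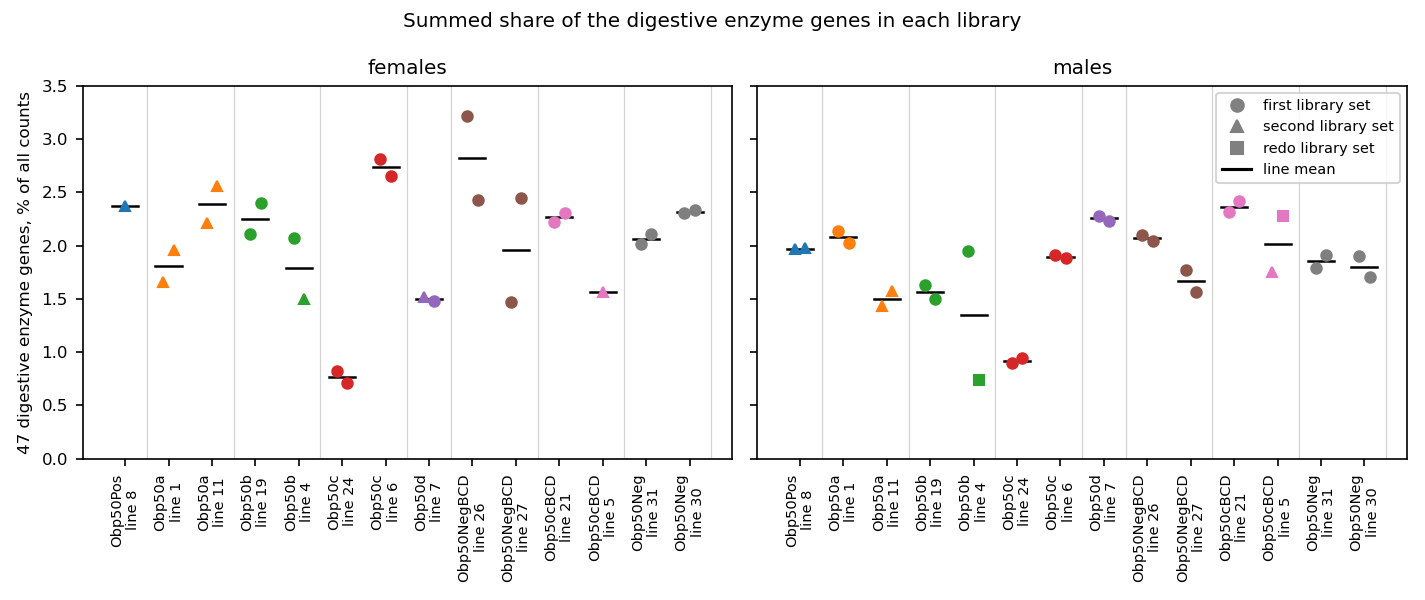
Share of all counts taken by the 47 digestive enzyme genes, in percent, with 1 point per library by genotype and line (females left, males right). Symbols mark the library set and bars the line means; the lowest female libraries were the 2 of *Obp50c* line 24 (0.819% and 0.707%), against 2.81% and 2.66% in line 6 of that genotype.

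Females and males differed in which digestive enzymes they expressed more of. Lysozymes, most trypsins and most Jonah proteases were higher in females, whereas the amylases and nearly all *Mal-A* maltases were lower in females, that is, higher in males. In the edgeR quasi-likelihood fit, 39 of the 46 tested genes passed the false discovery rate (FDR) threshold of 0.05, 26 higher and 13 lower in females. This share must be read against the background of these whole-fly libraries, in which 83.01% of all genes tested were called, 39.4% higher and 43.6% lower. The median log2 fold change (females over males) was 0.63 over the 46 genes and -0.10 over all genes tested. Female libraries held 11530 to 72716 CPM of summed female reproductive markers, the yolk protein genes *Yp1*, *Yp2* and *Yp3* among them, against 18.02 to 3534 CPM in males. Markers of somatic tissues differed as well. Summed eye markers ran between 1765 and 3442 CPM in females and between 2675 and 5250 CPM in males (4 of 4 lower in females), flight muscle markers between 1229 and 3093 CPM in females and between 1892 and 5775 CPM in males (4 of 5 lower), and fat body markers between 1734 and 5033 CPM in females and between 3030 and 6339 CPM in males (1 of 4 higher and 2 lower). The fat body sum was nearly all *apolpp*, with a median of 3668 CPM in females and 5188 CPM in males. Of the 5 enterocyte markers, 2 were higher and 1 lower in females. The part of these shifts in any sex difference was not tested. In bulk samples such as these, fewer cells of a type and less RNA per cell cannot be told apart.

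All 6 lysozymes tested were higher in females, with a median log2 fold change of 2.16. *LysP*, known in the adult fly as a salivary gland lysozyme, ranged between 5.68 and 19.4 CPM (median 12.2) in females and between 0.166 and 3.78 CPM (median 0.580) in males. *LysB* ranged between 11.0 and 70.8 CPM (median 26.8) in females and between 0.839 and 6.91 CPM (median 4.33) in males. For both genes every female library was above every male library, and the log2 fold changes were 3.85 ± 0.235 (SE) for *LysP* (edgeR adjusted p = 1.7e-19) and 2.86 ± 0.166 for *LysB* (3.2e-20). *LysS* had the largest fitted fold change of the set, 4.36 ± 0.333 on the log2 scale (edgeR adjusted p = 5.4e-16), at low levels of 0.912 to 10.6 CPM (median 2.90) in females and 0 to 1.68 CPM (median 0.206) in males. The abundant *LysE* overlapped widely between the sexes, at 21.96 to 169 CPM (median 62.8) in females and 18.8 to 91.5 CPM (median 28.4) in males, with a log2 fold change of 1.26 ± 0.164. In the 7 male libraries with female reproductive markers *LysP* ran between 0.399 and 3.78 CPM, against 0.166 to 1.23 CPM in the other males, and without those 7 libraries its log2 fold change was 4.23.

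Of the 11 trypsins, 9 were higher in females and none was lower, with a median log2 fold change of 1.00. The exceptions were the 2 most abundant, *alphaTry* and *betaTry*. Levels of *alphaTry* were 355 to 1308 CPM (median 656) in females and 221 to 1168 CPM (median 730) in males, and those of *betaTry* were 302 to 1584 CPM (median 553) in females and 231 to 1573 CPM (median 719) in males. The log2 differences of 0.06 (edgeR adjusted p = 0.71) and -0.24 (0.16) did not pass. In contrast, *deltaTry*, with 0 to 263 counts per library (median 44), reached a log2 fold change of 1.87 and *etaTry* 1.44 ± 0.0979, and *epsilonTry*, the third trypsin by abundance, 1.05.

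Among the Jonah proteases, 10 of 16 were higher in females, 2 were lower and 4 did not pass, with a median of 0.75. *Jon66Ci* was the most biased, at 19.3 to 112 CPM (median 56.2) in females and 3.64 to 24.9 CPM (median 10.03) in males, a log2 fold change of 2.39 ± 0.183. *Jon25Biii*, *Jon66Cii* and *Jon65Aii* followed with 1.496, 1.51 and 1.35, of which *Jon66Cii* rested on few counts (4 to 115 per library, median 20.5). The dominant *Jon99Ciii* overlapped between the sexes, at 2033 to 14368 CPM (median 6749) in females and 1843 to 7362 CPM (median 4896) in males, and its log2 fold change was 0.46 ± 0.154 (edgeR adjusted p = 0.0058). The 2 lower in females were *Jon99Ci*, with a log2 fold change of -0.98 ± 0.140 (adjusted p = 2.4e-08), and *Jon25Bi*, with -0.33 ± 0.142 (0.030). *Jon65Aiv*, *Jon25Bii*, *Jon99Cii* and *Jon74E*, at log2 0.33, 0.19, 0.11 and 0.04, did not pass.

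The carbohydrate enzymes went the other way. *Mal-A7* stood at 4.13 to 39.4 CPM (median 14.8) in females and 58.6 to 279 CPM (median 175) in males, and *Mal-A8* at 3.94 to 20.5 CPM (median 9.86) in females and 32.8 to 108 CPM (median 77.8) in males. *Mal-A4* (4.60 to 25.2 CPM in females and 26.0 to 71.9 CPM in males) and *Mal-A3* (5.90 to 23.1 CPM in females and 35.1 to 77.5 CPM in males) showed the same separation. For these 4 maltases every female library was below every male library. Their log2 fold changes were -3.43 ± 0.235 for *Mal-A7* (edgeR adjusted p = 9.2e-18), -2.79 ± 0.167 for *Mal-A8* (8.4e-20), -1.98 ± 0.153 for *Mal-A4* (5.8e-16) and -1.96 ± 0.128 for *Mal-A3* (1.7e-18). *Mal-A6*, *Mal-A1* and *Mal-A2* were also lower in females, by log2 values of -2.11, -1.53 and -0.87, so that 7 of 8 *Mal-A* genes were lower and the median was -1.97. *Mal-A5* alone of the cluster was higher in females, at 92.7 to 187 CPM (median 125) in females and 50.9 to 104 CPM (median 78.5) in males (log2 fold change 0.73 ± 0.0680, adjusted p = 2.1e-13). In the separate *Mal-B* pair, the scarce *Mal-B1* was lower in females (-1.01 ± 0.302) and *Mal-B2* did not pass (-0.16, adjusted p = 0.11). Together with *LysB* and *LysP*, the 4 separated maltases made 6 of 46 genes whose values did not overlap between the sexes, against a background of 32.3% of all genes tested (13.7% higher and 18.5% lower).

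All 3 amylase genes were lower in females. *Amy-p* ranged between 152 and 550 CPM (median 316) in females and between 235 and 866 CPM (median 665) in males, and *Amy-d* between 103 and 335 CPM (median 198) in females and between 217 and 780 CPM (median 465) in males. The ranges overlapped for both, while the log2 fold changes of -1.01 ± 0.123 (edgeR adjusted p = 4.0e-10) and -1.23 ± 0.110 (5.7e-14) were several times their errors. *Amyrel*, a diverged relative of the pair, was scarce at 0 to 2.38 CPM (median 1.07) in females and 0.106 to 4.96 CPM (median 2.47) in males, with a log2 fold change of -1.44 ± 0.248 (adjusted p = 1.1e-06). Summed by family, the amylases gave a median of 535 CPM in females and 1129 CPM in males, and *Mal-A* 459 CPM in females and 1304 CPM in males. Jon genes summed to 19388 CPM in females and 12858 CPM in males at the median, and lysozymes to 161 CPM in females and 53.9 CPM in males.

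**Figure D2:**
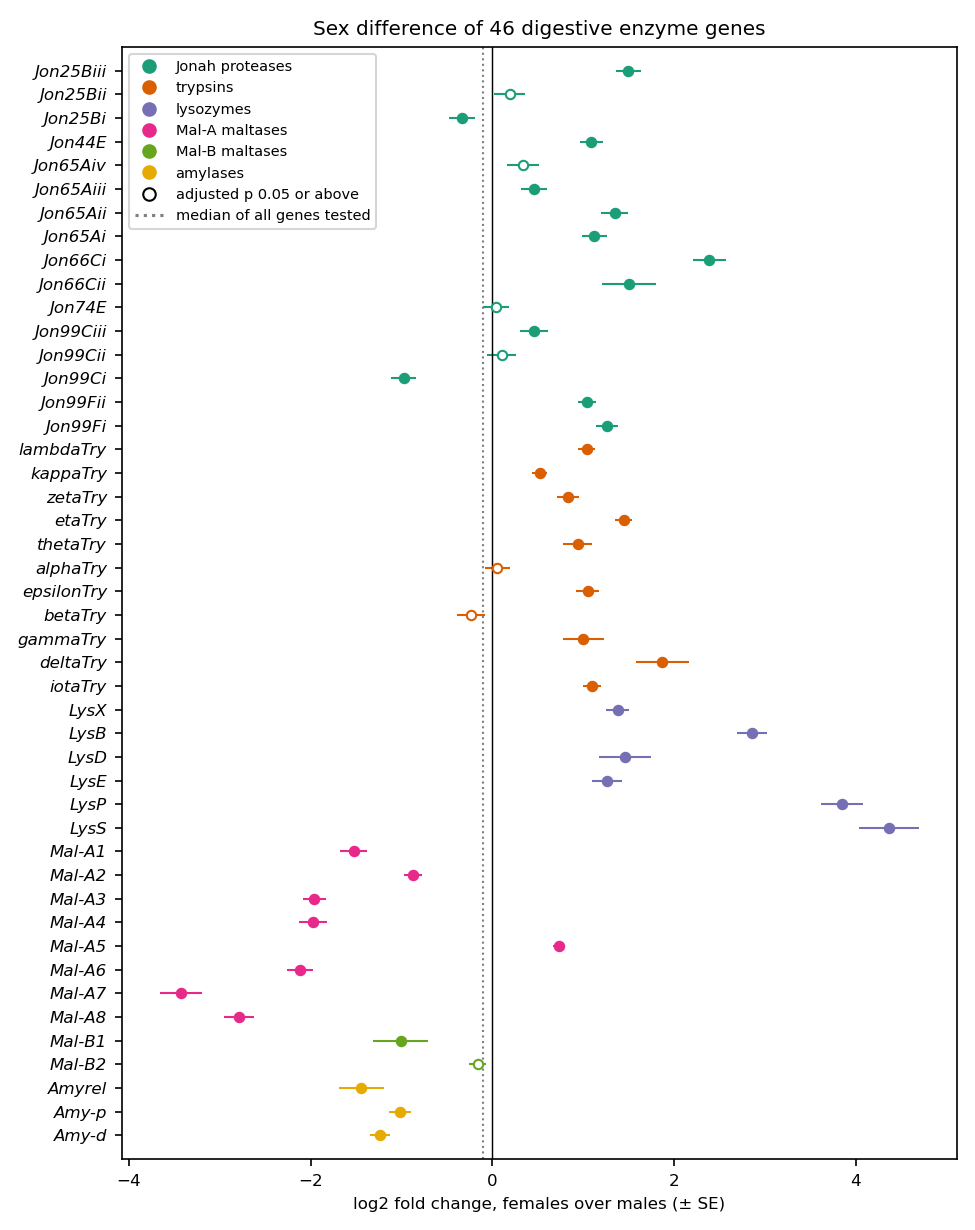
Log2 fold change of each tested gene, females over males, with its standard error, coloured by family; open symbols did not pass the FDR threshold and the dotted line is the median of all genes tested (-0.10). The 6 lysozymes lie right of 0, while the 3 amylase genes and 7 of 8 *Mal-A* genes lie left of it.

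These differences ran in the same direction in both main library sets for all 39 called genes, with 18 female and 21 male libraries in the first set and 8 female and 5 male libraries in the second. In 31 of the 39 the difference of the means had that sign in each of the 14 lines. The calls were made from these same libraries, so neither count is a separate check of them. No share over all called genes stands beside them. Without TMM scaling the log2 ratio of the members moved by a median of -0.17, and only *Jon74E*, *Jon99Cii* and *alphaTry*, none of them called, changed sides.

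Other genes, from lists made by function, were read in the same fit. Of 9 further peptidases listed beside the gut enzymes, 4 were higher and 2 lower in females, with the largest differences for *Ser12* (log2 6.64) and *Send1* (7.57). *Send1* is known as a peptidase of the spermatheca, so that this count is not one of gut genes only. Of 10 further hydrolases, lipases and sterol uptake genes, 1 was higher (*Npc1b*, a sterol transporter of the midgut, 1.79) and 6 were lower, including the target of brain insulin gene *tobi*, an alpha-glucosidase (-1.78), and the mannosidase *LManIII* (-1.59). Of 4 secreted peptidoglycan amidases, which cut bacterial cell walls in the gut as lysozymes do, 3 were higher in females (*PGRP-SC1a* 1.63, *PGRP-SC1b* 1.23 and *PGRP-SC2* 1.00). Of 2 peritrophic matrix genes tested, 1 was higher and 1 lower. Of 9 enteroendocrine hormone genes, 8 were lower in females, and of 13 regulators 4 were higher and 4 lower.

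The genotype comparison asked whether the digestive enzyme genes differed with the *Obp50* paralog present, beyond the difference between the sexes. The sex difference itself did not vary detectably with genotype: no member passed the edgeR test of the sex by genotype interaction, where 1.97% of all genes tested did. At an unadjusted p under 0.05 there were 2 members (background 15.9%), and DESeq2 called 1. Mean shares of all counts lay between 1.498% (*Obp50d*, 2 libraries) and 2.39% ± 0.715 (*Obp50NegBCD*, n = 4) in females and between 1.41% ± 0.564 (*Obp50c*, n = 4) and 2.26% (*Obp50d*, 2 libraries) in males. *Obp50d* was thus the lowest genotype in females and the highest in males, from a single line. *Obp50Neg* flies averaged 2.19% ± 0.152 in females and 1.83% ± 0.102 in males (n = 4 each). The spread between libraries of *Obp50c* in females, 1.75% ± 1.14, exceeded the distance between any pair of genotype means.

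In the joint test over the 8 genotypes, 6 members passed in females (background 24.6%) and 1 in males (background 2.98%). The female calls were *Mal-A5* (edgeR adjusted p = 0.021), *Mal-A3* (0.024), *Jon99Fii* (0.028), *betaTry* (0.038), *zetaTry* (0.046) and *Mal-A4* (0.047). *Mal-A5* averaged 165 ± 21.1 CPM in *Obp50NegBCD*, 159 ± 23.7 CPM in *Obp50cBCD* (n = 3), 109 ± 13.5 CPM in *Obp50b* and 129 ± 12.9 CPM in *Obp50Neg* females (SD, n = 4 unless given). The male call was *LysX* (adjusted p = 0.045), which stood at 8.92, 6.76, 14.0 and 10.9 CPM in *Obp50cBCD* males, at 20.8, 23.03, 34.5 and 36.9 CPM in *Obp50a* males, and at 17.8 to 21.9 CPM in *Obp50Neg* males. *LysX* thus averaged lowest in *Obp50cBCD* and highest in *Obp50a*, where the higher pair of values came from line 11 in the second library set and set and line cannot be told apart. The 6 female calls became 0 without the female *Obp50cBCD* library 25_S42 and likewise without 26_S43, the male call ranged between 0 and 3 as single libraries were left out, and no call was made in either sex when libraries were summed by sex and line or when line was a random term. With each sex fitted alone there were 0 calls in females and 8 in males, and DESeq2 gave 15 in females and 11 in males.

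Pairwise, each paralog genotype was set against *Obp50Neg*, and the CD allele genotypes against their controls, in each sex. In 17 of these 18 contrasts no member passed the edgeR test. In males, the background of genes called against *Obp50Neg* was 0.0128% for *Obp50Pos*, 0.00% for *Obp50a*, for *Obp50b* and for *Obp50NegBCD*, 0.0191% for *Obp50c* and 0.0128% for *Obp50d*, and it was 0.0255% for *Obp50b* and 1.68% for *Obp50cBCD* against *Obp50NegBCD* and 0.293% for *Obp50cBCD* against *Obp50c*. In females it was 0.0255% for *Obp50Pos*, 1.89% for *Obp50a*, 1.13% for *Obp50b*, 1.35% for *Obp50c*, 0.823% for *Obp50d* and 0.102% for *Obp50NegBCD* against *Obp50Neg*, 0.287% for *Obp50cBCD* against *Obp50NegBCD* and 0.919% for *Obp50cBCD* against *Obp50c*. Few genes of any kind were therefore called in these contrasts. Between 0 and 12 members per contrast had an unadjusted p under 0.05, where 2.43% to 19.6% of all genes tested did, and DESeq2 called between 0 and 3 members. The exception was *Obp50b* against *Obp50NegBCD* in females, where 3 members (6.52%) were called, all lower. This was a smaller share than among all genes tested (background 14.5%, of which 8.27% lower).

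*Jon99Fii* stood at 347 and 453 CPM (line 19) and 314 and 277 CPM (line 4) in *Obp50b* females, against 851 and 745 CPM (line 26) and 379 and 597 CPM (line 27) in *Obp50NegBCD* females. Levels of *alphaTry* were 487, 663, 581 and 489 CPM in *Obp50b* and 1308, 1281, 593 and 1179 CPM in *Obp50NegBCD* females. *Mal-A5* levels were 95.8, 122, 99.1 and 119 CPM in *Obp50b* and 173, 187, 137 and 163 CPM in *Obp50NegBCD* females. For *Mal-A5* all *Obp50b* libraries were below all *Obp50NegBCD* libraries, and the others overlapped through line 27. The log2 fold changes were -0.89 ± 0.243 for *Jon99Fii* (edgeR adjusted p = 0.015), -0.60 ± 0.164 for *Mal-A5* (0.015) and -0.97 ± 0.325 for *alphaTry* (0.039). Cell type markers moved with this contrast. Summed midgut enterocyte markers were 741, 897, 863 and 735 CPM in *Obp50b* females, against 2022, 1848, 913 and 1361 CPM in *Obp50NegBCD* females (1 of 5 called, lower), and summed female reproductive markers were 27061 to 40532 CPM in *Obp50b* females, against 52815 to 72716 CPM in *Obp50NegBCD* females (0 of 12 called by edgeR). Their part in the difference was not tested. The count of 3 moved between 0 and 13 as single libraries were left out and was 0 when libraries were summed by line and when females were fitted alone.

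**Figure D3:**
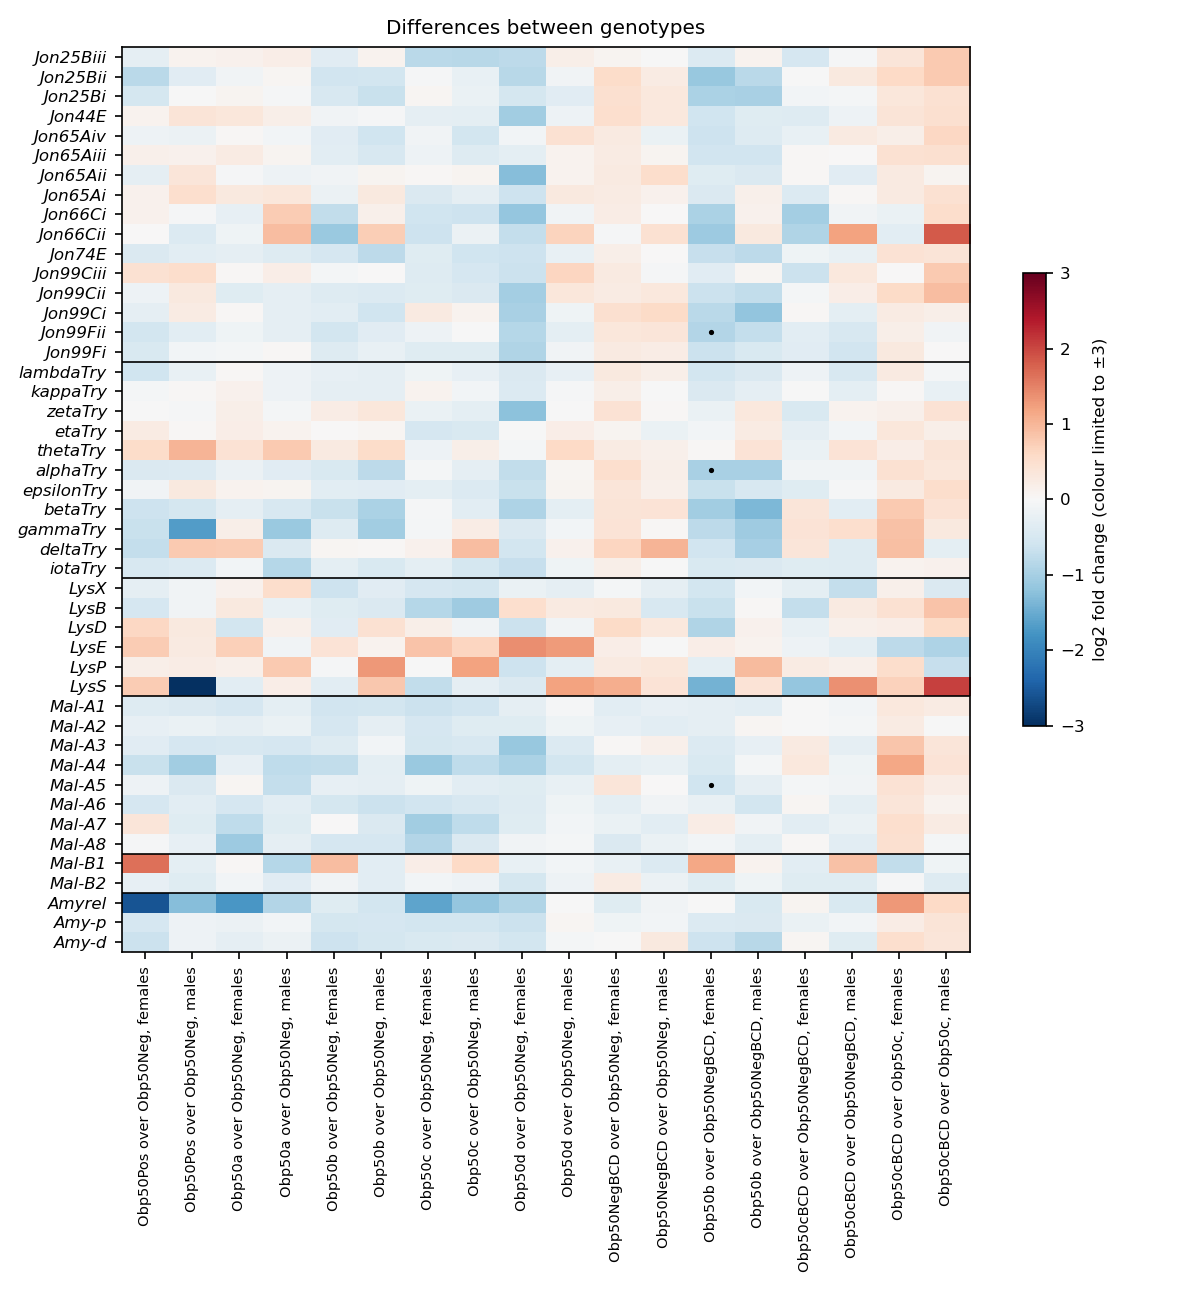
Log2 fold changes of the 46 tested genes (rows) in the 9 genotype contrasts of females and of males (columns), with the colour scale limited to 3 in each direction. Black dots mark the 3 calls, all lower in *Obp50b* than in *Obp50NegBCD* females.

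Lines of 1 genotype carry the same *Obp50* alleles, and many digestive enzyme genes differed between them. In a fit with a mean for each line and sex, whose residual spread is that between pools of a line, 39 members (84.8%) differed between lines within genotypes in females, against a background of 47.96%, and 16 (34.8%) in males, against 10.3%. Ordered by p-value the leading genes in females were *Mal-B2* (edgeR adjusted p = 3.8e-07), *zetaTry*, *Jon65Aiv*, *Mal-A2* and *LysE*, and in males *betaTry* (3.2e-04), *Jon99Fii*, *LysP*, *Mal-A4* and *Jon74E*. Without *Obp50c* the counts were 24 in females and 6 in males. The male count was also 6 without the *Obp50c* line 24 library 43_S15, and 28 without the redo library J1_S51 of *Obp50b* line 4. In females the highest line mean was a median 4.00 times the lowest over members, and in males 2.68 times. Line 24 of *Obp50c* was the lowest line for 26 of 46 members in females and 23 in males. These ratios and ranks cover the members only, with no value over all genes beside them.

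The *Obp50c* lines gave the most called members of the 6 line pairs in each sex. In females 30 members were called between line 24 and line 6 (background 26.7%), 29 lower in line 24 (background 14.1%) and *LysE* higher. In males 14 were called (background 11.7%), 13 lower (background 7.02%) and *LysS* higher. The median log2 fold change of members, line 24 over line 6, was -1.24 in females and -0.68 in males, while that of all genes tested was 0.08 in females and -0.13 in males. The sign was the same in both sexes for 41 of 46 members (89.1%, against 59.7% of all genes tested), and 12 were called in both sexes, all 12 with the same sign. The line by sex interaction was called only for *LysS* (background 7.43%). Line 24 had 0.819% and 0.707% of counts in the set in females, against 2.81% and 2.66% in line 6. In males it had 0.897% and 0.945%, against 1.91% and 1.88% in line 6.

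The Jonah proteases led this difference, with 14 of 16 lower in females and 8 of 16 in males. *Jon65Aiv* was at 655 and 593 CPM in line 24 females, against 4996 and 4874 CPM in line 6, and at 812 and 878 CPM in line 24 males, against 2922 and 2300 CPM in line 6. Its log2 fold change was -2.98 ± 0.353 in females (edgeR adjusted p = 1.6e-07) and -1.63 ± 0.335 in males (0.0014). *Jon99Ciii* was at 2635 and 2033 CPM in line 24 females, against 9728 and 8258 CPM in line 6, and at 2180 and 2085 CPM in line 24 males, against 4034 and 4611 CPM in line 6. In each sex the line 24 libraries lay below those of line 6 for both genes. *Jon74E* (65.3 and 67.004 CPM in line 24 females, against 298 and 313 CPM in line 6) gave -2.21 ± 0.285 (6.8e-07), *Jon65Aiii* gave -2.04 ± 0.290 (3.0e-06) and *Jon99Ciii* -1.95 ± 0.381 (2.2e-04) in females. *Jon25Biii* in males was at 164 and 173 CPM in line 24, against 456 and 396 CPM in line 6, a log2 fold change of -1.34 ± 0.261 (8.2e-04).

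Trypsins and carbohydrate enzymes followed in part. Of the trypsins, 6 were lower in females and 2 in males, and *betaTry* was at 308 and 302 CPM in line 24 females, against 1098 and 866 CPM in line 6, and at 387 and 427 CPM in line 24 males, against 992 and 834 CPM in line 6. Of the *Mal-A* genes 5 of 8 were lower in females and 1 in males. *Mal-A1*, the most abundant maltase, was at 60.8 and 83.8 CPM in line 24 females, against 216 and 319 CPM in line 6 (log2 fold change -1.89 ± 0.294). *Amy-p* was at 172 and 152 CPM in line 24 females, against 329 and 447 CPM in line 6 (-1.26), and *Amy-d* gave -1.30 in females and -0.78 in males. In all of these the line 24 libraries were the lower ones.

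Not every digestive gene was lower in line 24. *LysE* was at 169 and 123 CPM in line 24 females, against 48.7 and 54.7 CPM in line 6, which is the opposite direction (log2 fold change 1.499 ± 0.342, edgeR adjusted p = 0.0011). In males it was at 66.98 and 51.01 CPM in line 24, against 30.8 and 28.7 CPM in line 6. *LysS* in males had 11 and 6 counts in line 24, against 0 and 0 in line 6, at least 5.93-fold higher when the counts of a line are pooled and 3 counts are taken as the limit of a count of 0. The 17 counts of line 24 carry error too, and the 95% exact interval of the ratio started at 4.32, counting error only. *Mal-B2* differed little, at 59.3 and 60.6 CPM in line 24 females, against 60.1 and 56.1 CPM in line 6, and at 70.99 and 72.5 CPM in line 24 males, against 67.3 and 65.8 CPM in line 6. For *LysP* in males, 0.459 and 0.512 CPM in line 24 stood against 3.78 and 0.563 CPM in line 6, and the 3.78 came from a library with female reproductive markers.

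**Figure D4:**
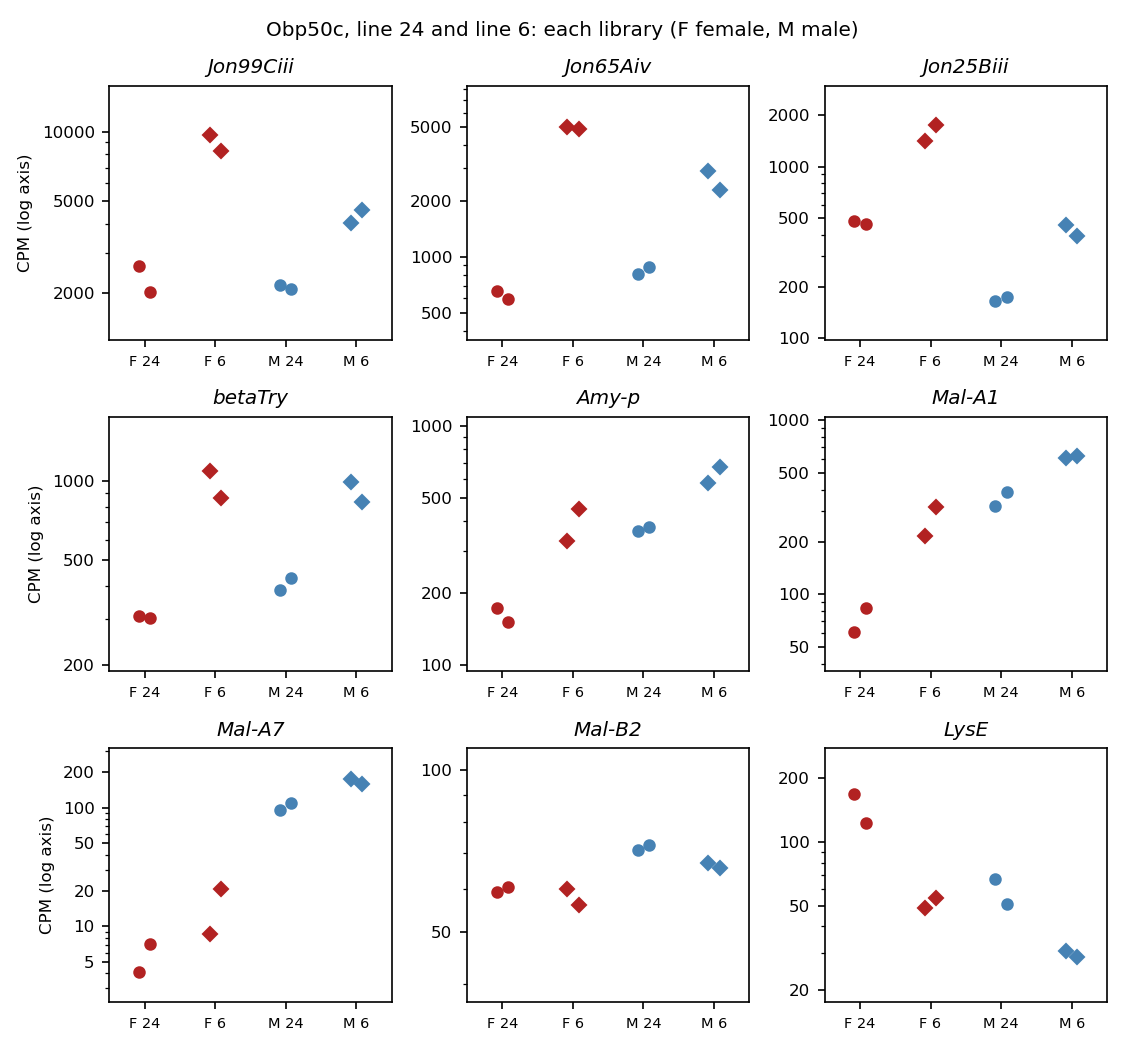
Levels of 9 digestive enzyme genes in the 2 lines of *Obp50c*, in CPM on a log axis, with 1 point per library in the order females line 24, females line 6, males line 24, males line 6. Line 24 is the lower line for the proteases, amylase and *Mal-A* genes shown, *LysE* is higher in line 24, and *Mal-B2* is level.

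Cell type markers moved between these lines as well, those of midgut enterocytes among them. The enterocyte sum largely follows *yip7*, which also stands in the lists of other gut genes. Summed midgut enterocyte markers were 600 and 580 CPM in line 24 females, against 1855 and 1342 CPM in line 6 (4 of 5 markers lower), and 544 and 590 CPM in line 24 males, against 1173 and 933 CPM in line 6 (2 of 5 lower). Summed female reproductive markers were 13429 and 11530 CPM in line 24 females, against 40902 and 45610 CPM in line 6, with 0 of 12 called by edgeR. Summed male reproductive markers were 2956 and 3107 CPM in line 24 males, against 5391 and 5440 CPM in line 6, with 0 of 10 called. In females 3 of 4 eye markers were lower and 1 of 4 fat body markers was higher in line 24. The part of these shifts in the difference between the lines was not tested. Other gut genes were also lower in line 24 females, with 3 of the 9 further peptidases, 4 of 10 hydrolases and lipases, 3 of 4 amidases and 4 of 9 enteroendocrine hormones. In males the lower genes were 3 of 9 peptidases, 1 of 10 hydrolases and 1 of 4 amidases, with no enteroendocrine gene called. Leaving out 1 of the 4 libraries gave 22 to 23 calls in females and 2 to 10 in males, the lowest without line 24 library 43_S15.

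The 2 *Obp50a* lines differed in females but hardly in males. In females 23 members were called between line 1 and line 11 (background 34.6%), 22 lower in line 1 (background 17.7%) and *Amyrel* higher, and in males 1 (background 0.376%). The median log2 fold change in females was -0.75 over members and -0.03 over all genes tested, and in males 0.38 over members and 0.06 over all genes tested. *Mal-B2* was at 37.5 and 29.2 CPM in line 1 females, against 86.2 and 82.4 CPM in line 11 (log2 fold change -1.34 ± 0.172, edgeR adjusted p = 4.0e-07). *Mal-A4* was at 5.46 and 4.75 CPM in line 1 females, against 12.8 and 25.2 CPM in line 11 (-1.90 ± 0.258, 9.6e-07), and *Mal-A2* at 26.3 and 19.6 CPM in line 1, against 40.1 and 50.5 CPM in line 11 (-0.98 ± 0.187, 1.3e-04). The line 1 females were lower throughout for these 3 maltases. Summed female reproductive markers were also lower in line 1 females, at 34426 and 37311 CPM, against 53828 and 58636 CPM in line 11 (0 of 12 called by edgeR), as were eye markers, at 2090 and 1819 CPM, against 2401 and 2591 CPM in line 11 (1 of 4 called, lower). Midgut enterocyte markers were at 1015 and 1108 CPM in line 1 females, against 1218 and 1264 CPM in line 11 (1 of 5 called higher and 1 lower). The part of these markers in the line difference was not tested. *Amyrel* had 32 and 11 counts in line 1 females, against 5 and 0 in line 11, a ratio of 6.41 (95% counting interval 2.54 to 20.7). The male call was *gammaTry*, with 46 and 29 counts in line 1 and 2 and 2 in line 11, a ratio of 12.7 (4.77 to 47.9, counting error only).

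For *Obp50a* the line difference itself differed between the sexes. The line by sex interaction was called for 21 members (background 22.3%), all 21 more negative in females than in males (background 11.4% in that direction). *Jon99Fii* was at 373 and 349 CPM in line 1 females, against 530 and 601 CPM in line 11, but at 250 and 200 CPM in line 1 males, against 143 and 168 CPM in line 11. The set took 1.66% and 1.96% of counts in line 1 females, against 2.21% and 2.56% in line 11, and 2.02% and 2.14% in line 1 males, against 1.43% and 1.57% in line 11. Both female lines were in the second library set, whereas male line 1 was in the first and male line 11 in the second, so that set and line cannot be told apart in males, and with library set as a term the interaction was called for 10 members. With the left-out libraries kept in the fit the counts were 9 for the female lines and 8 for the interaction. The female line count fell to 4 without library 61_S41, and the interaction count to 5 without library 49_S29, a male library with female reproductive markers.

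The remaining line pairs gave fewer calls. Between line 26 and line 27 of *Obp50NegBCD*, 10 members were called in females (background 6.97%), 9 higher in line 26 (background 3.14%) and *Mal-A7* lower, and 0 in males (background 0.0128%, with 3 members at an unadjusted p under 0.05, a background of 1.82%, and 0 by DESeq2). In these females *zetaTry* was at 98.3 and 63.4 CPM in line 26, against 23.8 and 40.9 CPM in line 27 (log2 fold change 1.33 ± 0.244, edgeR adjusted p = 0.0020). In males it was at 24.1 and 22.7 CPM in line 26, against 21.3 and 22.5 CPM in line 27. *Jon44E* (1.15 ± 0.262) and *Jon99Fi* (0.94 ± 0.234) were also higher in line 26 females, and edgeR called no line by sex interaction for any member (background 0.0255%, with 11 members at an unadjusted p under 0.05, a background of 9.22%, and 4 by DESeq2). Summed midgut enterocyte markers were 2022 and 1848 CPM in line 26 females, against 913 and 1361 CPM in line 27 (1 of 5 called higher and 1 lower), and female reproductive markers were 72716 and 61749 CPM in line 26, against 52815 and 56728 CPM in line 27 (0 of 12 called by edgeR). Their part in the difference was not tested. The female count was 0 without library 17_S9 and without library 19_S11, and 5 with the left-out libraries kept in the fit.

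Between line 19 and line 4 of *Obp50b*, 6 members were higher in line 19 females (background 7.65%, and 21.3% in both directions) and 0 were called in males (background 0.108%, with 12 members at an unadjusted p under 0.05, a background of 6.11%, and 2 by DESeq2). Here too *zetaTry* led, at 55.01 and 82.7 CPM in line 19 females, against 29.2 and 28.9 CPM in line 4 (1.25 ± 0.244, edgeR adjusted p = 2.4e-04), followed by *Mal-B2* at 59.1 and 87.9 CPM in line 19, against 40.2 and 44.4 CPM in line 4 (0.80 ± 0.170), and *iotaTry* (0.96 ± 0.223). Summed female reproductive markers were 31327 and 40532 CPM in line 19 females, against 27061 and 29032 CPM in line 4, and midgut enterocyte markers 741 and 897 CPM in line 19, against 863 and 735 CPM in line 4. The line by sex interaction was called for 7 members (background 12.8%). In males the 2 line 4 libraries disagreed: the set took 1.95% of counts in one and 0.742% in the redo library J1_S51, which was the lowest male library for 19 members, and *Mal-A7* was at 166 CPM in one and 58.6 CPM in the other. Both carried female reproductive markers. The female count was 1 without library 34_S26, and the male count was 8 without library 59_S21.

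In *Obp50cBCD*, line 21 exceeded line 5 in males for 9 members (background 7.95%, and 12.2% in both directions), while 3 members were called in females (background 7.26%), where line 5 was a single library. Levels of *betaTry* were 1323 and 1584 CPM in line 21 females, against 439 CPM in line 5, and 1573 and 1112 CPM in line 21 males, against 430 and 425 CPM in line 5. It was called in both sexes, with log2 fold changes of 1.73 ± 0.352 and 1.65 ± 0.270. *Jon99Fii* was at 326 and 259 CPM in line 21 males, against 136 and 127 CPM in line 5 (1.16 ± 0.205), and *Jon99Ci* gave 1.18 ± 0.299. *LysE* was at 21.96 and 24.6 CPM in line 21 females, against 125 CPM in line 5 (-2.43 ± 0.397), but at 27.3 and 24.9 CPM in line 21 males, against 21.9 and 18.8 CPM in line 5, and it was the only member with a called line by sex interaction here (background 0.421%). That call was lost with all 56 libraries and without the redo libraries, and the left-out line 5 female library had *LysE* at 62.7 CPM. Midgut enterocyte markers summed to 1656 to 2142 CPM in line 21 females, against 890 CPM in line 5, and to 1304 to 1603 CPM in line 21 males, against 668 to 670 CPM in line 5. Line and library set cannot be told apart in this genotype, and with library set as a term the male count was 2. It was also 2 without line 21 library 27_S44.

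Between line 31 and line 30 of *Obp50Neg* no member was called by edgeR in females (background 0.121%) or in males (background 0.0510%). At an unadjusted p under 0.05 there were 2 members in females (background 6.32%) and 0 in males (background 1.33%), and DESeq2 called 0 in both. The line by sex interaction was called for 0 members (background 0.0383%), with 1 at an unadjusted p under 0.05 and 0 by DESeq2. Lines with the same *Obp50* alleles thus gave between 0 and 30 called members depending on the genotype and the sex.

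**Figure D5:**
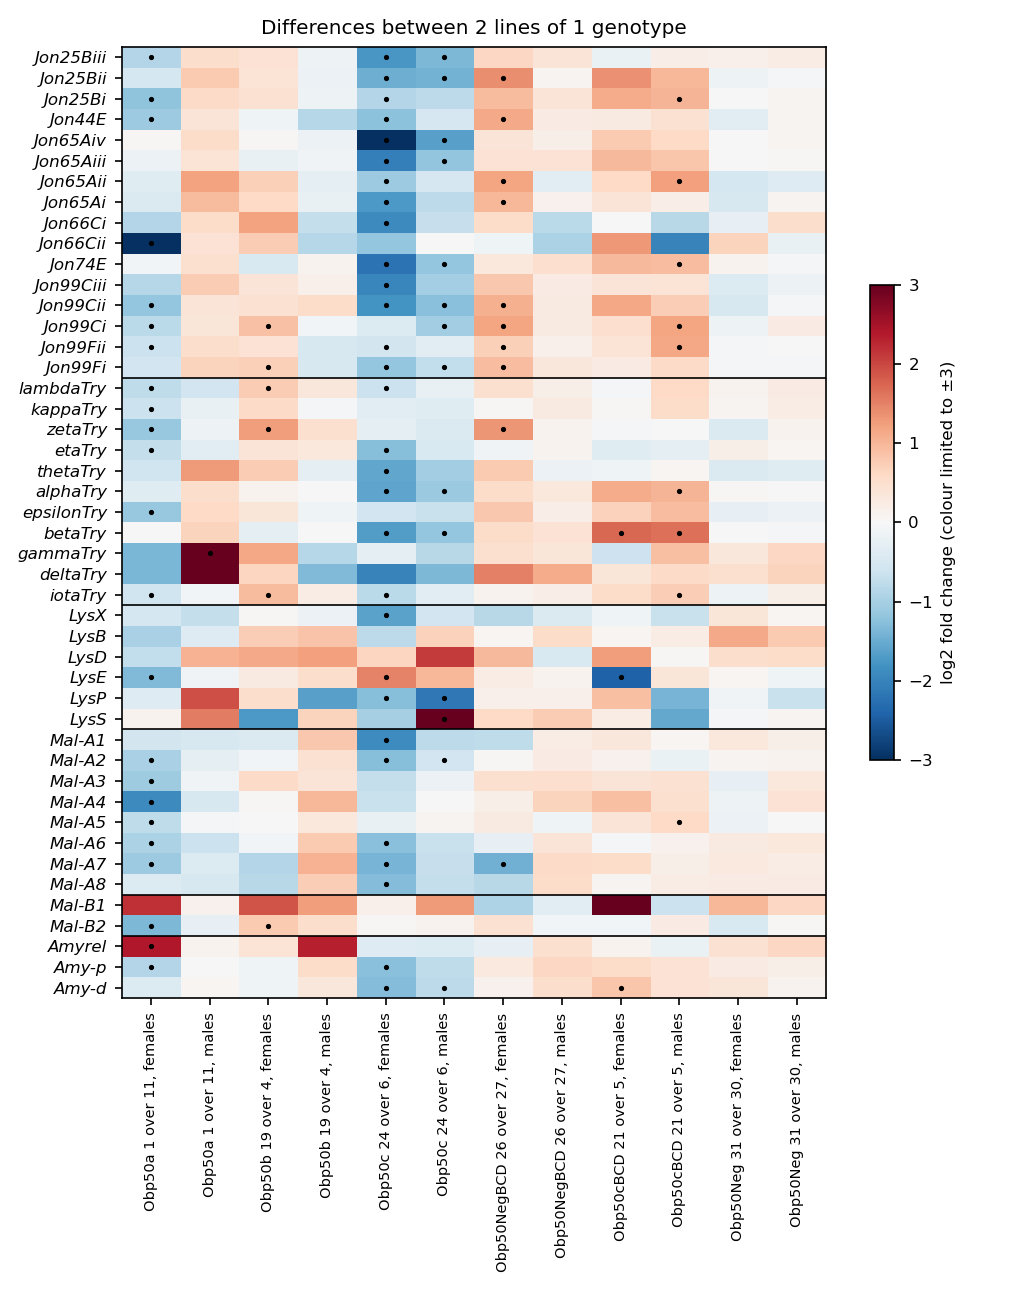
Log2 fold changes of the 46 tested genes (rows) between the 2 lines of each of 6 genotypes, in females and in males (columns), with black dots on called genes. The dots are densest for line 24 against line 6 of *Obp50c* in females (30) and for line 1 against line 11 of *Obp50a* in females (23), and there are none for *Obp50Neg* in both sexes or for *Obp50NegBCD* and *Obp50b* in males.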

How the data were processed

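Whole-fly RNA of 56 pools of 30 flies was depleted of ribosomal RNA and sequenced by the authors, who aligned reads with GSNAP and counted uniquely mapped reads over exons, ignoring strand, with featureCounts 1.6.4 on annotation release 6.13. The deposited values are raw counts per gene, 1 table for the series and 1 per library, and the 2 kinds of table differed in 0 cells. No column of the authors' own comparisons was used.

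The study's own filter was used: genes had to have reads in 25% or more of the 54 libraries and a median of 2 or more counts. Counts were fitted in edgeR 4.0.16 (R 4.3.3, limma 3.58.1) with TMM scaling and the quasi-likelihood test, either with a mean for each of 16 combinations of sex and genotype (38 residual degrees of freedom) or for each of 28 combinations of sex and line (26 residual degrees of freedom), with Benjamini-Hochberg adjustment over 15675 genes. DESeq2 1.42.0, a voom fit with line as a random block, and a mixed model (lme4 1.1.37, lmerTest 3.1.3) were alternatives. The mixed model used counts scaled by gene length and TMM, without a log. Its random terms were line, as in the study, and line within each sex. CPM values are TMM-scaled, and levels are compared between genes only per kilobase of exon.

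The members and lists were chosen with earlier results of these data known. Named genes were the most abundant of each family, those with the largest differences and no overlap between the sexes (up to 5 a direction), the 5 smallest p-values of each joint test, all or the 3 leading calls of each pairwise contrast, and the amylase genes. Other members, such as *Jon66Ci* and *Jon25Bi*, were named after their values were seen. The line pairs, the line by sex interactions, the fits without the redo libraries, without the 7 male libraries, without *Obp50c* and with the 3 genotypes of the first set were added after the data were seen. The fits were tested on simulated data: among 15675 genes, 100% of those changed 4-fold between the sexes were recovered, 97.8% of those changed 4-fold between *Obp50b* and *Obp50NegBCD* females, and 25.7% of those changed 2-fold there. In the joint genotype test in females, 29.7% of genes changed 2-fold in a single genotype were recovered, and 99% of those changed 4-fold. For lines within genotype in females, 6.31% of genes changed 2-fold in a single line were recovered, and 83.1% of those changed 4-fold. Recovery in the measured libraries was not tested, so these rates cannot be read as the share of real changes found there. Single line pairs were not simulated. Nucleotide sequences were not used here.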

Additional observations from a re-analysis of the deposited data

Results flagged for a closer look

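Of 165 tests in groups of 4 libraries for a library far from the others, 6 were past Dixon's 95% critical value, and chance gives about 1 in 20. In *Obp50b* males the redo library J1_S51 was lowest, with 453.5 CPM of summed amylases (973 to 1054 CPM in the others) and 235.0 CPM of *Amy-p* (594 to 608 CPM in the others). In *Obp50Neg* males, *alphaTry* was highest in library 4_S4, at 784.9 CPM, against 767 to 770 CPM in the others. In *Obp50a* males, *LysE* was highest in 81_S33, at 29.6 CPM, against 25.2 to 25.5 CPM. In *Obp50cBCD* males, *Mal-B2* was lowest in the redo library J3_S53, at 39.6 CPM, against 56.1 to 59.1 CPM. In *Obp50c* females, *Amyrel* was highest in 64_S33, at 0.796 CPM, against 0.483 to 0.533 CPM.

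The difference between the lines of a genotype differed between females and males, by edgeR's test of the interaction, for 21 members (45.7%) in *Obp50a*, against a background of 22.3%. It did so for 7 (15.2%) in *Obp50b*, near the background of 12.8%. In *Obp50c* it was 1 (*LysS*, 2.17%), below the background of 7.43%, and in *Obp50cBCD* 1 (*LysE*, 2.17%), against 0.421%.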

How the results depend on the processing

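Counts of members called are given for each alternative that moved a count by over 1.5 times, with the count in the report in parentheses. The 39 sex calls stayed between 38 and 42 in all alternatives run, and no result reversed. Of 407 counts recomputed under 15 settings, 341 stayed within 1.5 times and 66 did not. The cause was not tested except where fewer libraries or genes entered.

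With DESeq2 the counts were 1 (0) for the sex by genotype interaction, 15 (6) for any genotype difference in females and 11 (1) in males, 2 (0) for *Obp50a* against *Obp50Neg* in females and 1 (0) in males, 1 (0) for *Obp50c* and 2 (0) for *Obp50d* against *Obp50Neg* in females, 5 (3) for *Obp50b* against *Obp50NegBCD* in females and 3 (0) in males, and 1 (0) for *Obp50cBCD* against *Obp50c* in females. For lines DESeq2 gave 11 (6) in *Obp50b* females and 2 (0) in males, 5 (1) in *Obp50a* males, and line by sex interactions of 4 (0) in *Obp50NegBCD* and 2 (1) in *Obp50c*.

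With DESeq2 size factors in edgeR there were 2 (1) for any genotype difference in males, 1 (0) for *Obp50c* against *Obp50Neg* in females and 4 (9) for the *Obp50cBCD* lines in males. Without a filter on low counts, *Obp50b* against *Obp50NegBCD* in females gave 7 (3) and the *Obp50cBCD* lines in males 4 (9). With a mean count of at least 10 these were 6 and 5, *Obp50a* against *Obp50Neg* in females gave 1 (0) and the *Obp50b* lines in females 11 (6).

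With all 56 libraries, *Obp50cBCD* against *Obp50c* in females gave 2 (0), and the line pairs in females gave 5 (10) in *Obp50NegBCD*, 9 (23) in *Obp50a* and 6 (3) in *Obp50cBCD*. The line by sex interactions then gave 2 (7) in *Obp50b*, 8 (21) in *Obp50a* and 0 (1) in *Obp50cBCD*. With library set as a term, any genotype difference in males gave 0 (1), the lines in males 0 (1) in *Obp50a* and 2 (9) in *Obp50cBCD*, and the interaction 3 (1) in *Obp50c* and 10 (21) in *Obp50a*.

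Any genotype difference gave 0 (6) in females and 0 (1) in males with counts summed by sex and line, with voom and line as a random block, and with the mixed model, where *Obp50b* against *Obp50NegBCD* in females gave 0, 1 and 0 (3) in that order. With each sex fitted alone these were 0 in females, 8 in males and 0 for that contrast, and in males *Obp50a* against *Obp50Neg* gave 2 (0), *Obp50b* against *Obp50NegBCD* 3 (0) and *Obp50cBCD* against *Obp50c* 1 (0).

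Without the 7 male libraries with female markers, any genotype difference gave 10 (6) in females and 2 (1) in males, and *Obp50b* against *Obp50NegBCD* in females 7 (3). Without the 2 redo libraries, lines within genotype gave 26 (16) in males, the pairs in males 22 (14) in *Obp50c*, 3 (0) in *Obp50b* and 4 (1) in *Obp50a*, the pairs in females 11 (6) in *Obp50b* and 11 (3) in *Obp50cBCD*, and the interactions 7 (1) in *Obp50c*, 14 (7) in *Obp50b* and 0 (1) in *Obp50cBCD*. Lines within genotype in males gave 6 (16) from the 3 genotypes of the first set and 6 without *Obp50c*, which left 24 (39) in females.

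Each library was also left out in turn. The trend of dispersion with abundance was kept from the fit on 54 libraries, so it still included the library left out. The counts were then 38 to 40 for sex, 0 to 11 for any genotype in females and 0 to 3 in males. For lines they were 32 to 41 in females and 6 to 28 in males. Contrasts in females ranged over 0 to 13 for *Obp50b* against *Obp50NegBCD*, 0 to 7 for *Obp50c* and 0 to 1 for *Obp50a* against *Obp50Neg*, and 0 to 2 for *Obp50cBCD* against *Obp50c*. The 7 came without *Obp50c* library 64_S33. Line pairs in females ranged over 22 to 23 in *Obp50c*, 4 to 25 in *Obp50a*, 0 to 14 in *Obp50NegBCD*, 1 to 9 in *Obp50b* and 2 to 2 in *Obp50cBCD*, and in males over 2 to 10, 0 to 2, 0 to 0, 0 to 8 and 2 to 15. Interactions ranged over 0 to 1 in *Obp50c*, 5 to 25 in *Obp50a*, 0 to 3 in *Obp50NegBCD*, 2 to 12 in *Obp50b* and 1 to 2 in *Obp50cBCD*. A lone library of a line was assumed to vary like the other groups.

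For single named genes, 594 of 685 tests under other settings kept their side of the threshold, 82 no longer passed and 9 newly passed. By replicate number, no paired analysis was possible because libraries carry unique identifiers that groups do not share. The sexes do share the 14 lines, and the sex count was 42 (39) with line as a fixed term, 41 with line as a random block and 38 with counts summed by sex and line. Depth limited *LysC*, *Jon66Cii*, *LysD*, *LysS*, *Mal-B1*, *gammaTry*, *Amyrel* and *deltaTry*, each with a median of at most 44 counts per library.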
